A study of Mus musculus with 18 samples.

Results

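The TAM family is a small signalling module of 2 secreted ligands, Gas6 and protein S (gene Pros1), and 3 receptor tyrosine kinases, Axl, Mertk and Tyro3. These 5 genes were taken by symbol from the 30072 genes of the deposited tables. They were followed in the interventricular septum of hearts from CD-1 mice, an outbred strain. The 18 mice, male and female littermates aged 8 weeks or more, formed 3 groups of 6. The ctrl mice were given isoflurane anesthesia but no radiation treatment, and no time of sampling is labelled for them. The 2wk and 6wk mice were given 25 Gy in 1 session under the same anesthesia and sampled 2 and 6 weeks later. Per the study's methods, control and irradiated mice also had CT imaging. The tissue was whole septum with no sorting of cells, the sex of each mouse was not labelled, and the labels call the radiation gamma where the study's methods name X-rays. Gas6 had been picked by the study for its difference from ctrl at 2 and at 6 weeks. The study listed it among top genes by adjusted P, limited to a log-fold change above 2. The log2 fold changes of Gas6 here, 0.78 and 0.52, were below that limit. The other 4 genes were added as its family with results of these mice known. Differences of the 5 genes from ctrl are therefore given as a description, with no P.

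Gas6 and protein S are vitamin K-dependent proteins whose gamma-carboxylated ends bind phosphatidylserine, a lipid that dying cells and activated platelets expose on their surface. Their other end binds the TAM receptors, so that the ligand bridges a dying cell to a phagocyte and starts its engulfment, while the receptor also restrains innate immune signalling through the type I interferon receptor and SOCS proteins. Gas6 is known to activate all 3 receptors and protein S mainly Mertk and Tyro3. In the heart, Mertk is best known from macrophages that clear dying cardiomyocytes, and Axl from vascular cells and fibroblasts. In whole septum, fewer cells of a type and less RNA per cell cannot be told apart, and neither can more cells and more RNA.

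All 5 genes lie on the GRCm38 assembly as protein-coding genes. Gas6 (ENSMUSG00000031451) occupies chr8:13465374-13494490 on the minus strand and Pros1 (ENSMUSG00000022912) chr16:62854307-62929346 on the plus strand. Axl (ENSMUSG00000002602) lies at chr7:25757273-25788705 on the minus strand. Mertk (ENSMUSG00000014361) and Tyro3 (ENSMUSG00000027298) lie on the plus strand of the same chromosome, at chr2:128698956-128802894 and chr2:119797733-119818104. Gas6 is annotated with 1 transcript, Mertk with 2, Pros1 with 3, and Axl and Tyro3 with 8 each. The 3′ end of Gas6 overlaps the end of Tmem255b on the opposite strand, and whether counting used strand is not given in the sources used here. Tmem255b reached at most 214 counts in a mouse, against at least 1791 for Gas6.

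The 250 bases before the RefSeq transcription start are shown for both ligands, for Mertk, which was also higher than ctrl at 6 weeks, and for Axl, which was not, so that the sequences before genes of unlike course can be read side by side. They are RefSeq sequence of GRCm38.p6, 5′ to 3′ on the strand of the gene, at chr8:13494536-13494785 (minus) for Gas6, chr16:62854057-62854306 (plus) for Pros1, chr2:128698665-128698914 (plus) for Mertk and chr7:25788734-25788983 (minus) for Axl. Capitals mark the GC box (GGGCGG on either strand) and, in Pros1, the gamma-activated site (TTCNNNGAA).
Gas6: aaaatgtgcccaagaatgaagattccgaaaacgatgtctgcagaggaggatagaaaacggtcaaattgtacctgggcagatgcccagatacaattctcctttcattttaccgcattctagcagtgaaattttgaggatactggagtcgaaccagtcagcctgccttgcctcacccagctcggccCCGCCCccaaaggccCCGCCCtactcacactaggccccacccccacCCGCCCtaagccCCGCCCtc
Pros1: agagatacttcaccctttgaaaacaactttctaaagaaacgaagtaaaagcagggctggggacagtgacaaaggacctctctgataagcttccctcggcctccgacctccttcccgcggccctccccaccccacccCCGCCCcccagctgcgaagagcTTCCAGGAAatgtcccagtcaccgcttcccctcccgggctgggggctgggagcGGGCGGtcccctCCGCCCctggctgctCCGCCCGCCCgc
Mertk: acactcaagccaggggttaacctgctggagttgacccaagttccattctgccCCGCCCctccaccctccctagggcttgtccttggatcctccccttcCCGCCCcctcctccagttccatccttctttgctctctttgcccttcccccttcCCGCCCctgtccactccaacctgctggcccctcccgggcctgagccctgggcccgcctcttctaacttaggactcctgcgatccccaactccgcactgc
Axl: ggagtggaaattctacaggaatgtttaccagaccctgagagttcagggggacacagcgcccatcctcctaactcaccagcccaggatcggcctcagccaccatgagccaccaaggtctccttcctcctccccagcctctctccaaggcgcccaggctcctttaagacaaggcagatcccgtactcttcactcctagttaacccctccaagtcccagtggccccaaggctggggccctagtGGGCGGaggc

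The GC box, the core letters bound by Sp1-type factors, matched 4 times before Gas6, 5 times before Pros1 (2 of them overlapping), 3 times before Mertk and Tyro3 each, and 1 time before Axl. Of 32851 promoters of the same length, 32.7% held at least 1 GC box. The match nearest to the start began 8 bases before it in Gas6 and Pros1, 10 in Axl, 22 in Tyro3 and 99 in Mertk. The gamma-activated site, the palindrome bound by STAT dimers, matched only before Pros1 among the 5 genes and in 7.02% of all promoters, and it did not overlap a GC box there. No match was found before any of the 5 genes for the AP-1 element (TGANTCA, in 6.75% of promoters), the interferon-stimulated response element (2.98%), the E-box (CACGTG, 6.02%), the TATA box (TATAAA, 12.4%), the LXR element (a direct repeat of AGGTCA with 4 bases between, 0.0152%) or the p53 element (0.0639%). GC content was 54.8% in Gas6, 64.4% in Pros1, 63.6% in Mertk, 60.0% in Axl and 73.2% in Tyro3, against a median of 52.4% over all promoters. The RefSeq start of Tyro3 lies 1781 bases inside its annotated gene, so its window holds sequence of the gene itself and is not shown. These are matches of letters in a short window and say nothing about binding.

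Libraries held 11522987 to 15501019 estimated counts, and 3 counts corresponded to 0.194 to 0.260 CPM, the unit of counts scaled to library size. Levels are given as CPM with TMM factors, which correct for differences in library composition, when 1 gene is compared between mice. They are given as TPM, which also corrects for transcript length, when genes are compared with each other. All 8 cardiomyocyte markers were detected, with a sum of 28650 to 50770 CPM in every mouse. Mouse 4 of ctrl stood apart from the other controls, with a macrophage marker sum of 314.7 CPM where the other 5 had 136.5 to 199.4, and a fibroblast marker sum of 4518 CPM where they had 2466 to 3223. Some values are also given without it. A gene was called at an adjusted P below 0.05 by edgeR's quasi-likelihood F test, with Benjamini-Hochberg adjustment over the 15054 genes tested. All 5 family genes passed the filter on low counts.

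Per length, the order of the family was the same in every group: Gas6, Axl, Pros1, Mertk, Tyro3. In ctrl, TPM was 57.4 ± 8.71 for Gas6, 38.4 ± 7.26 for Axl, 9.06 ± 2.13 for Pros1, 1.99 ± 0.440 for Mertk and 0.502 ± 0.264 for Tyro3 (SD, n = 6). Each gene stood clear of the next, since its lowest mouse was above the highest mouse of the gene below it in all 3 groups. The closest neighbours were Gas6 and Axl in ctrl, with a lowest Gas6 of 48.4 TPM and a highest Axl of 45.6 TPM. Within single mice Gas6 was 1.31 to 1.84 times Axl in ctrl, 2.02 to 3.03 times at 2 weeks and 1.51 to 2.31 times at 6 weeks.

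**Figure D1:**
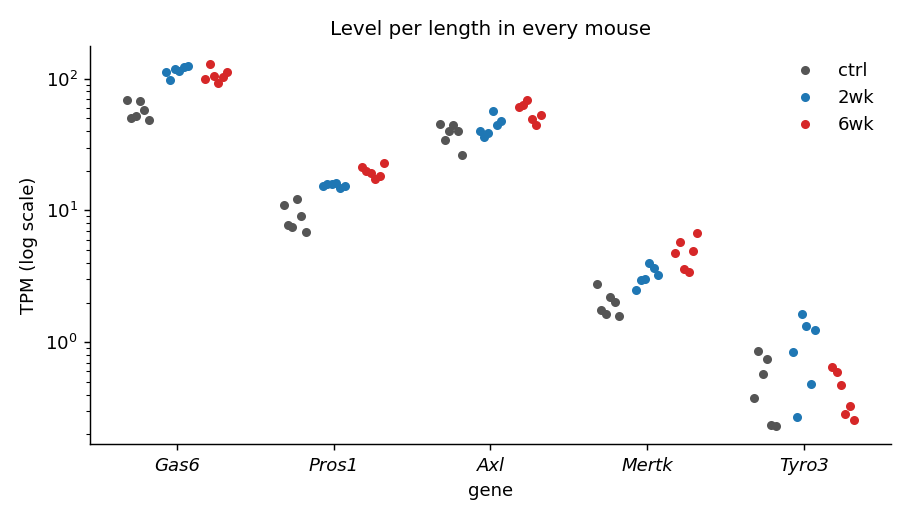
TPM on a log scale for the 5 genes, with 1 point per mouse and 6 mice in each of ctrl, 2wk and 6wk. The order Gas6, Axl, Pros1, Mertk, Tyro3 holds in each group, from 57.4 TPM for Gas6 to 0.502 TPM for Tyro3 in ctrl.

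Axl supplied nearly all receptor transcript per length. It made up 93.9 ± 0.722% of the summed TPM of the 3 receptors in ctrl, 91.3 ± 1.03% at 2 weeks and 91.3 ± 2.31% at 6 weeks (SD, n = 6). The share of Mertk was 4.90 ± 0.672%, 6.73 ± 0.748% and 8.00 ± 2.36%, and that of Tyro3 was 1.23 ± 0.656%, 1.98 ± 1.10% and 0.687 ± 0.205%. In TPM, the 2wk mice, at 5.75 to 7.61%, all had a Mertk share above the ctrl mice, at 3.89 to 5.66%. The 6wk mice spread from 4.89 to 11.4%. The lowest 6wk share was that of mouse 3, which had the highest Axl TPM of its group (69.1) but an Axl level of 124.6 CPM. The summed TPM of the ligands was 1.64 ± 0.180 times that of the receptors in ctrl, 2.75 ± 0.337 times at 2 weeks and 2.07 ± 0.278 times at 6 weeks. This ratio overlapped between ctrl, with a highest mouse of 1.96, and 6wk, with a lowest of 1.69, but not between ctrl and 2wk, with a lowest of 2.11. The shares and the ratio rest on TPM, in which Axl had a mean of 38.4 in ctrl and 56.5 at 6 weeks. In CPM the mean of Axl was 126.5 in ctrl and 122.5 at 6 weeks. The overlap at 6 weeks thus holds for TPM only, and neither measure was computed from CPM.

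Against ctrl, 2 of the 5 family genes were called at 2 weeks, both higher, where 5.02% of all genes tested were called and 3.09% were called higher. At 6 weeks 3 of 5 were called, all higher, against 25.0% of all genes and 13.5% called higher. The same 2 and 3 genes did not overlap ctrl, as did 1.96% and 5.80% of all genes in that direction. Since the family was chosen around this difference of Gas6, nothing is read from these counts. They were the same without mouse 4 of ctrl. Between the irradiated groups 1 of 5, Gas6, was called, lower at 6 weeks, against 5.33% of all genes and 2.01% called lower.

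Gas6, the ligand of all 3 receptors, was higher in every irradiated mouse than in any control. In ctrl it ranged from 154.5 to 179.3 CPM with a median of 168.2. At 2 weeks the lowest mouse had 267.7 CPM, the median was 283.2 and the highest 318.8. At 6 weeks the lowest had 214.3 CPM, the median was 228.8 and the highest 291.9. The log2 fold change was 0.78 (SE 0.0706, 1.72-fold) at 2 weeks and 0.52 (SE 0.0704, 1.43-fold) at 6 weeks.

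The level of Gas6 was lower at 6 weeks than at 2 weeks in this scaling, with 287.3 ± 19.2 CPM at 2 weeks and 238.7 ± 28.2 CPM at 6 weeks (SD, n = 6). Between the same mice of both irradiated groups, the log2 fold change was −0.27 (SE 0.0701, adjusted P = 0.0347, edgeR), and 1 mouse of 6wk, at 291.9 CPM, lay inside the 2wk range. The call was lost in 8 of 18 fits that left out 1 mouse (mice 3, 4, 5 and 6 of 2wk, mice 1, 3, 4 and 6 of 6wk), where the adjusted P reached 0.0773. It was also lost with scaling to library size alone (log2 fold change −0.16, adjusted P = 0.261) and with TPM (−0.11, adjusted P = 0.509 by limma).

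Pros1 encodes protein S, which is also a cofactor of activated protein C in plasma. Its level was 21.1 to 33.9 CPM in ctrl with a median of 25.5. It was 35.3 to 42.0 CPM at 2 weeks, with a median of 38.1. At 6 weeks it was 40.6 to 48.2 CPM, with a median of 44.0. Neither irradiated group overlapped ctrl, whose highest mouse was mouse 4. The log2 fold change was 0.55 (SE 0.0901) at 2 weeks and 0.74 (SE 0.0901) at 6 weeks, and 0.64 and 0.83 without mouse 4 of ctrl. Between 2 and 6 weeks the difference of 0.19 (SE 0.0886) did not pass the test (adjusted P = 0.220, edgeR). Gas6 TPM was 6.44 ± 0.570 times Pros1 TPM in ctrl, 7.40 ± 0.809 times at 2 weeks and 5.41 ± 0.614 times at 6 weeks (SD, n = 6).

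**Figure D2:**
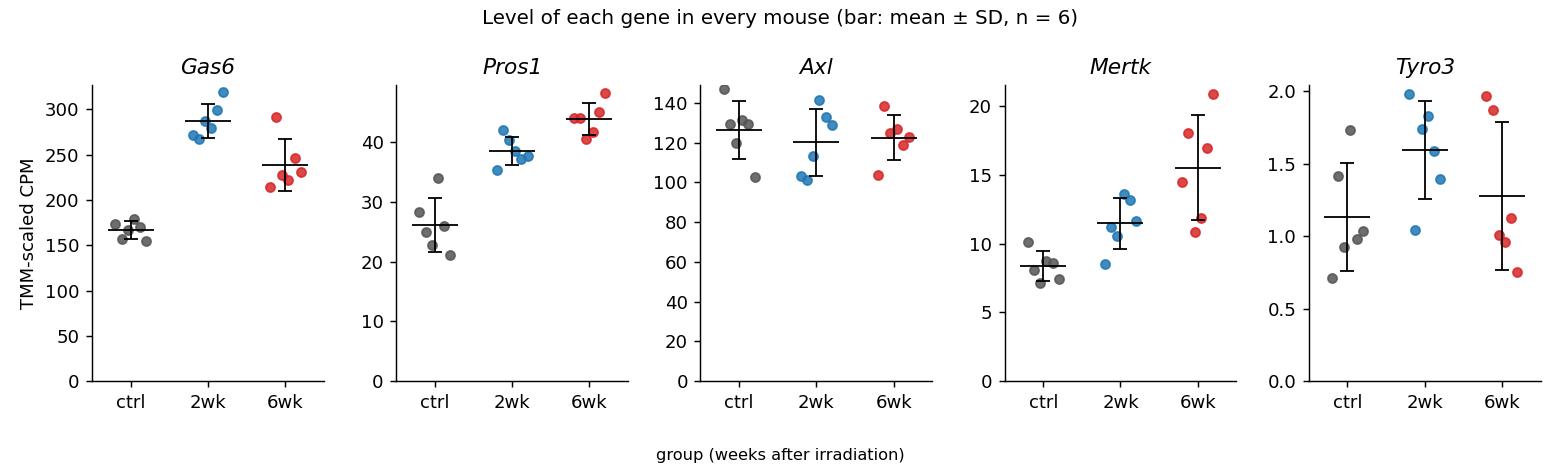
TMM-scaled CPM of each gene by mouse, with axes that start at 0 and differ in range between panels; points are mice and bars the mean ± SD of 6. Gas6 and Pros1 of both irradiated groups lie above all controls, Mertk does so at 6 weeks only, and Axl and Tyro3 overlap between all groups.

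Mertk, the receptor through which macrophages take up dying cells, was the receptor with the largest difference from ctrl at 6 weeks among the 3. It ranged from 7.13 to 10.2 CPM in ctrl, with a median of 8.35. At 2 weeks it was 8.51 to 13.6 CPM, with a median of 11.4. At 6 weeks it was 10.8 to 20.8 CPM, with a median of 15.7. The 2wk mice overlapped ctrl and the 6wk mice did not. The log2 fold change was 0.45 (SE 0.155) at 2 weeks and 0.88 (SE 0.153) at 6 weeks. The spread between mice was widest at 6 weeks, where mouse 3 had 10.8 CPM and mouse 6 had 20.8. Between 2 and 6 weeks the difference was 0.43 (SE 0.149, adjusted P = 0.0948, edgeR), which did not pass the threshold but did with scaling to library size alone (0.55, adjusted P = 0.0415).

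Axl, the most abundant receptor here, overlapped between all groups in CPM. It was 102.6 to 146.7 CPM in ctrl (median 129.3), 101.1 to 141.5 at 2 weeks (median 121.0) and 103.5 to 138.3 at 6 weeks (median 123.6). The log2 fold change from ctrl was −0.08 (SE 0.0945) at 2 weeks and −0.05 (SE 0.0945) at 6 weeks, and its direction depended on the scaling. With library size alone it was 0.07 and 0.21, where the median of all genes moved to 0.15 and 0.24. With log2(TPM + 1) it was 0.20 and 0.55, where the median of all genes moved to 0.18 and 0.29. Relative to those medians Axl was within 0.1 of the median gene except for the TPM at 6 weeks. Between 2 and 6 weeks the difference was 0.03 (adjusted P = 0.912, edgeR).

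Axl counts and Axl TPM differed at 6 weeks, so the ratio of the 2 was compared between groups. Whether the deposited counts had been scaled for transcript length is not given in the sources used here. Counts per TPM, in each mouse relative to 449 genes with 1 annotated transcript, were on average 0.871 times the ctrl value at 6 weeks (exact permutation test, two-sided, n = 6 per group, P = 0.0823, adjusted over 15 tests P = 0.365), so this difference did not pass. A fit of the counts with that ratio as an offset gave Axl a log2 fold change of 0.16 at 6 weeks, below the 0.55 with log2(TPM + 1). For Gas6, Pros1 and Mertk, counts per TPM differed by 1.5% or less between groups. Axl has 8 annotated transcripts of unlike length, and how reads were split among them cannot be seen in gene-level tables.

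Tyro3, the third receptor and best known from the nervous system, was near the limit of these libraries, with 10 to 33 counts per mouse. Its level was 0.716 to 1.74 CPM in ctrl, 1.04 to 1.98 at 2 weeks and 0.753 to 1.97 at 6 weeks, and all groups overlapped. The log2 fold change was 0.50 (SE 0.262) at 2 weeks and 0.20 (SE 0.272) at 6 weeks, and at 6 weeks it turned to −0.06 with log2(TPM + 1). Counts per TPM of Tyro3, relative to those of Gas6 in the same mouse, varied from 0.434 to 1.43.

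**Figure D3:**
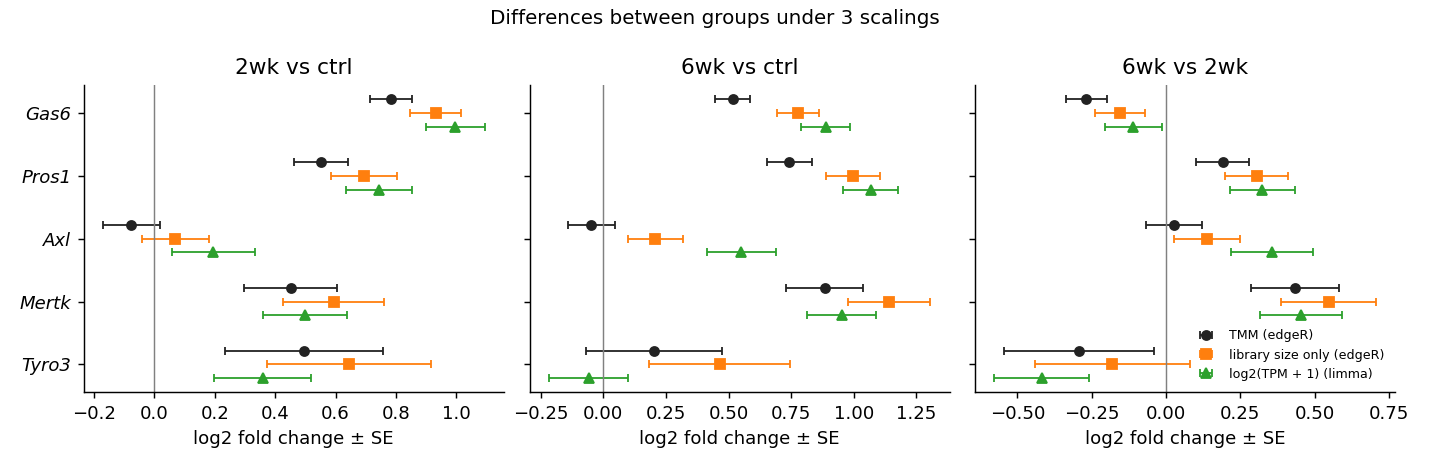
Log2 fold change ± SE of the 5 genes in the 3 comparisons, with TMM scaling and with library size alone (edgeR) and as log2(TPM + 1) (limma); the horizontal ranges differ between panels. Gas6, Pros1 and Mertk lie on the same side of 0 under each scaling against ctrl, whereas Axl moves from −0.05 to 0.55 at 6 weeks.

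Genes that act with the TAM family were taken as 72 genes in 10 classes, of which 68 were tested. Proc, C4bp, Xkr9 and Havcr1 were below the filter. At 2 weeks 7 were higher and 0 lower than ctrl (10.3%, against 5.02% of all genes). At 6 weeks 22 were higher and 2 lower (35.3%, against 25.0%). Between 2 and 6 weeks 6 were higher and 0 lower (8.82%, against 5.33%). The median log2 fold change of the list stayed near that of all genes, at 0.03 against 0.00 at 2 weeks and 0.06 against −0.02 at 6 weeks. The count at 2 weeks was fragile, since it was 1 to 4 when any 1 of 9 mice was left out (mice 2, 3, 5 and 6 of ctrl and mice 1, 2, 3, 5 and 6 of 2wk), where Abcg1 kept its call. Scaling to library size alone turned the split at 6 weeks to 38 higher and 0 lower.

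Of 3 other TAM ligands, 1 was higher at 6 weeks, where 25.0% of all genes were called. Lgals3, galectin-3, a lectin that also binds Mertk, had 0.278 to 2.57 CPM in ctrl, where mouse 4 was the highest, and 1.56 to 3.31 at 6 weeks (difference on the log2 scale 1.33, SE 0.334, adjusted P = 0.00645). Without mouse 4 of ctrl this difference was 1.90 (SE 0.285), and Lgals3 also passed at 2 weeks (1.20, SE 0.307, adjusted P = 0.0302). Counts of Lgals3 were low, at 3 to 37 per mouse in ctrl and 21 to 46 at 6 weeks. Of the 4 genes listed with gamma-carboxylation, the vitamin K step without which Gas6 does not bind lipid, only Calu, calumenin, passed (0.18, SE 0.0615, adjusted P = 0.0441). The carboxylase gene Ggcx did not pass (−0.14). That call was lost in 13 of 18 fits that left out 1 mouse. Among the partners of protein S, Procr, the endothelial protein C receptor, was higher at 6 weeks (1.28, SE 0.266, adjusted P = 0.00161). Thbd, thrombomodulin, was lower (−0.34, SE 0.104, adjusted P = 0.0226), but at −0.07 with library size alone and 0.04 with log2(TPM + 1) it did not pass, and the call was lost without mouse 3 of ctrl or mouse 3 or 5 of 6wk.

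Of the 2 sheddases, which cut TAM receptors from the cell surface, Adam10 was higher at 6 weeks, with 61.0 to 82.0 CPM against 48.9 to 62.5 in ctrl (log2 fold change 0.33, SE 0.0716, adjusted P = 0.00250). Adam17 did not pass, and 25.0% of all genes were called at 6 weeks. None of the 6 scramblases and flippases tested, which move phosphatidylserine between the leaflets of the membrane, passed in any comparison.

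Of 15 other bridges and receptors of phosphatidylserine, 7 were higher and 0 lower at 6 weeks, against 25.0% of all genes called, after 1 of 15 at 2 weeks, against 5.02%. Anxa1, annexin A1, which binds the exposed lipid and dampens inflammation, had 14.3 to 25.5 CPM in ctrl, 15.9 to 21.7 at 2 weeks and 29.9 to 53.6 at 6 weeks (a difference from ctrl of 1.04 on the log2 scale, SE 0.153, adjusted P = 9.19e-05). Thus the 6wk mice stood above all others. Itgb3, the integrin chain that pairs with alpha V to bind Mfge8, was higher by 1.23 (SE 0.229, adjusted P = 0.000655). Mfge8, the secreted bridge of that integrin, rose by 0.30 (SE 0.0570, adjusted P = 0.000713), with 106.2 to 122.4 CPM in ctrl and 128.9 to 149.0 at 6 weeks.

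In the engulfment class 2 of 7 genes were higher at 2 weeks, where 3.09% of all genes were, and 3 of 7 at 6 weeks, where 13.5% were. Vav1, an exchange factor of small GTPases in blood cells, had 1.81 to 4.09 CPM in ctrl and 5.63 to 8.88 at 6 weeks (difference on the log2 scale 1.33, SE 0.187, adjusted P = 5.91e-05). Elmo1 and Dock1, the pair that activates Rac beneath engulfment receptors, were also higher, Elmo1 by 0.47 (SE 0.0786, adjusted P = 0.000298). That of Dock1 was 0.17 (SE 0.0522, adjusted P = 0.0258). The call of Dock1 was lost without mouse 2 or 3 of ctrl or mouse 1 or 6 of 6wk. Of 7 genes of the LXR pathway, which handles the cholesterol of engulfed cells, only Abcg1, a cholesterol exporter, passed. That is 14.3% at each time, against 5.02% of all genes at 2 weeks and 25.0% at 6 weeks. Abcg1 had 6.90 to 11.5 CPM in ctrl, 13.7 to 23.9 at 2 weeks and 28.7 to 44.1 at 6 weeks, with no overlap between any groups. The log2 fold change was 1.17 (SE 0.149, adjusted P = 0.000192) at 2 weeks and 2.03 (SE 0.148, adjusted P = 5.98e-08) at 6 weeks.

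**Figure D4:**
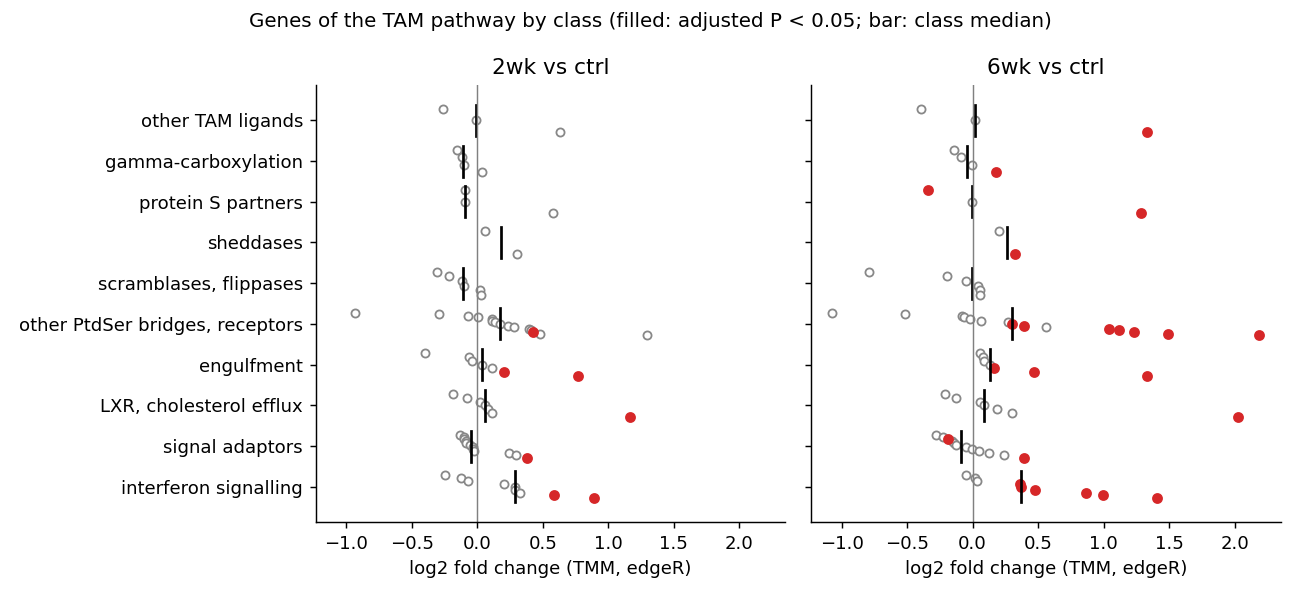
Log2 fold change from ctrl of the 68 tested genes that act with the TAM family, by class, at 2 and 6 weeks (TMM, edgeR); filled points passed at an adjusted P below 0.05 and bars are class medians. Filled points number 7 at 2 weeks and 24 at 6 weeks, with Abcg1 at 2.03 in the LXR class and 0 in the class of scramblases and flippases.

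Of 12 adaptors and kinases downstream of the receptors, 16.7% were called at 6 weeks, against 25.0% of all genes. Src was higher (0.39, SE 0.0991, adjusted P = 0.00658). Plcg1, phospholipase C gamma, was lower (−0.19, SE 0.0674, adjusted P = 0.0467), a call lost in 14 of 18 fits that left out 1 mouse and a direction that turned to 0.07 with library size alone. The 9 genes of the interferon brake had 6 calls at 6 weeks, all higher (25.0% of all genes were called), and 2 at 2 weeks (5.02% of all genes). Socs3, a feedback inhibitor of cytokine receptors, rose by 0.996 (SE 0.160, adjusted P = 0.000198). Ifnar1, a chain of the type I interferon receptor that pairs with Axl, rose by 0.48 (SE 0.0839, adjusted P = 0.000402). The 12 pathway genes named here as higher at 6 weeks, other than Calu and Dock1, kept their calls in all 18 fits that left out 1 mouse.

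Marker sums of several cell types differed in median between the same groups. The 11 macrophage markers summed to a median of 173.0 CPM in ctrl (136.5 to 314.7), 237.2 at 2 weeks (215.1 to 266.3) and 293.5 at 6 weeks (272.5 to 385.9). At 6 weeks 7 of 11 were higher and 1 lower, where 25.0% of all genes were called. At 2 weeks 1 was higher, where 5.02% of all genes were called. The 4 markers of recruited monocytes summed to medians of 2.40, 8.47 and 15.2 CPM (2.00 to 8.81, 5.62 to 16.1 and 14.6 to 21.4). The 8 cardiomyocyte markers summed to medians of 44710, 39060 and 31920 CPM, with 7 of 8 lower at 6 weeks. The 8 fibroblast markers summed to medians of 2866, 2465 and 2124 CPM. At 6 weeks 2 of 8 were lower, a share of 25% that equals that of all genes called. The 8 endothelial markers summed to medians of 985.3, 1048 and 1164 CPM, with 3 higher and 2 lower at 6 weeks. The sums use TMM scaling, with factors of 0.844 to 0.991 in ctrl and 1.04 to 1.13 in 6wk. With library size alone the median of all genes moved to 0.24 at 6 weeks. Mitochondrial genes held a median of 23.2% of counts in ctrl, 20.2% at 2 weeks and 17.4% at 6 weeks. The sums were not compared under other scalings. In these 5 lists no marker stayed at or below 3 counts in every mouse. The part of any of these cell types in the levels of Mertk, Pros1, Gas6 or the pathway genes was not tested.

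Deviations of each mouse from its own group mean do not use the differences by which Gas6 was picked, and were compared over the 18 mice in 30 relations, of 10 pairs of family genes and of each gene with the macrophage, fibroblast, endothelial and smooth muscle and pericyte lists. Of the 30, Pros1 with the macrophage list passed. Pearson's r was 0.892 (permutation within groups, two-sided, P = 0.00022, adjusted P = 0.0066), whereas Spearman's coefficient was 0.686 (permutation P = 0.00719, adjusted P = 0.0719). Leaving out the 2 mice farthest from the median of Pros1 gave r = 0.730. Within groups r was 0.993 in ctrl, 0.574 in 2wk and 0.566 in 6wk (n = 6 mice each). Without mouse 4 of ctrl, r was 0.786 (permutation P = 0.00175, adjusted over 30 relations P = 0.0263).

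**Figure D5:**
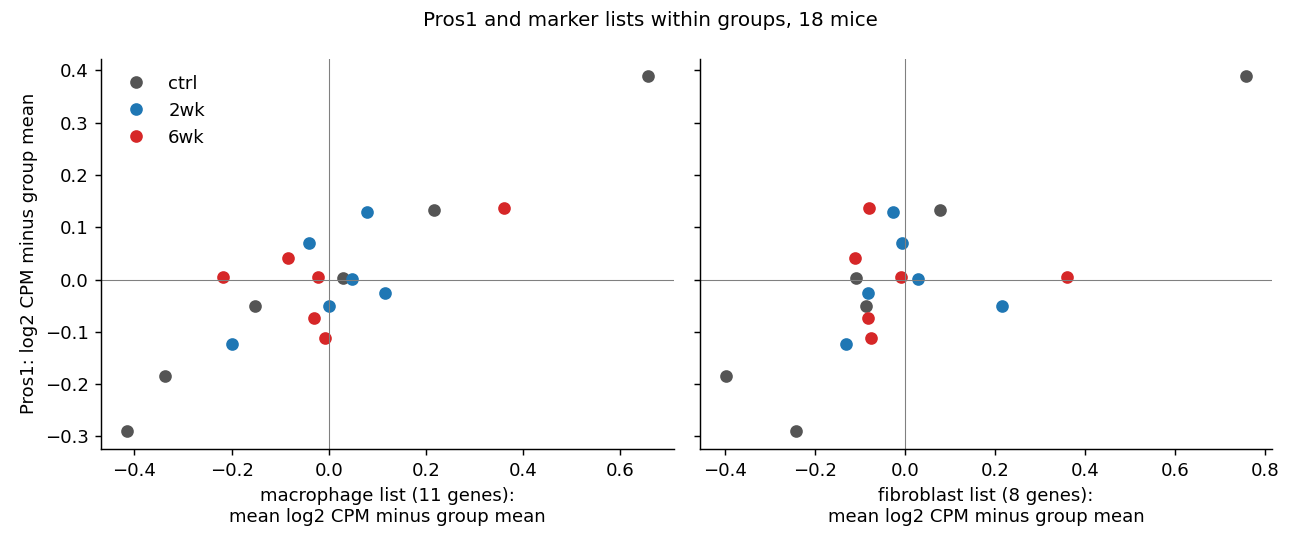
Deviation of log2 CPM of Pros1 from its group mean, against that of the mean of 11 macrophage markers (left) and of 8 fibroblast markers (right), with 1 point per mouse. The macrophage list follows Pros1 with r = 0.892, and mouse 4 of ctrl is the point at the upper right of both panels.

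Other relations did not pass the adjusted threshold over the 18 mice with TMM scaling. Mertk and the macrophage list had r = 0.438 (permutation P = 0.0343, adjusted P = 0.129) and Gas6 and the macrophage list r = 0.188 (permutation P = 0.415, adjusted P = 0.691). Between family genes the closest were Gas6 and Axl (r = 0.611, Spearman's 0.678, permutation adjusted P = 0.0693 and 0.0597) and Pros1 and Mertk (r = 0.523, Spearman's 0.670, permutation adjusted P = 0.0693 and 0.0597). By Pearson's r both pairs passed with library size alone (permutation adjusted P = 0.00585 and 0.0206). They also passed with log2(TPM + 1) (permutation adjusted P = 0.042 and 0.018). Without mouse 4 of ctrl Pros1 and Mertk passed (r = 0.661, permutation adjusted P = 0.0263). Gas6 and the endothelial list had r = −0.646 (permutation adjusted P = 0.0891), the lowest of the 30. This relation depended on the scaling, with r = −0.024 with library size alone and 0.279 with log2(TPM + 1). Pros1 and the fibroblast list had r = 0.736 (permutation adjusted P = 0.0891), which was 0.387 without the 2 mice farthest from the median and 0.399 without mouse 4 of ctrl. Over the 18 mice this pair passed with library size alone (permutation adjusted P = 0.0249) and with log2(TPM + 1) (permutation adjusted P = 0.018).

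The genes whose course over the 18 mice was most like each family gene were found by the root mean square distance between standardized log2 CPM, where the median gene lay at about 1.4. For Gas6 they were Ltc4s, leukotriene C4 synthase (0.374), Ces2e, a carboxylesterase (0.380), and Sesn2, a sestrin (0.442). Like Gas6, Ltc4s had its highest level at 2 weeks, with 3.03 ± 0.734 CPM in ctrl, 14.4 ± 3.45 at 2 weeks and 9.42 ± 0.652 at 6 weeks (SD, n = 6). For Pros1 they were Trp53inp1 (0.262), Rasal3 (0.262) and Dbn1 (0.290), all highest at 6 weeks. For Mertk they were Mgl2, a lectin of macrophages (0.401), Kbtbd11 (0.409) and Rgs14 (0.469), and Mgl2 went from 3.84 ± 1.31 CPM in ctrl to 16.1 ± 6.43 at 6 weeks. Axl and Tyro3 had no gene closer than 0.619 (Pld1) and 0.634 (Erlin2). Within the family the closest pair was Pros1 and Mertk at 0.561, followed by Gas6 and Pros1 at 0.694, while Axl lay 1.27 to 1.49 from the other 4. All these distances include the differences between groups, among them the one by which Gas6 was picked. They are a description with no test, and Ces2e is also among the study's listed top genes.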

How the data were processed

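RNA from the septum of 18 mice had been sequenced by the study (KAPA RNA HyperPrep libraries). Per the labels and the study's methods, the authors aligned reads to GRCm38 with STAR, quantified them with Salmon 1.0 and summed transcripts to genes with tximport. The deposited tables hold estimated counts and, separately, TPM for 30072 genes, of which 29301 were paired with a symbol, and the authors' TPM sum to the same total in each mouse. Estimated counts were rounded. The 15054 genes that reached 0.23 CPM in 6 or more mice were tested in edgeR 4.0.16 (R 4.3.3; TMM, quasi-likelihood, all 18 mice, no covariate, Benjamini-Hochberg), with a standard error of the absolute log2 fold change over the square root of F. limma 3.58.1 and DESeq2 1.42.0 served as alternatives, with log2(TPM + 1) and log2(TPM + 0.1) for limma. Further alternatives were scaling by library size or upper quartile, other filters, a replicate block, a covariate of Y-linked genes and leaving out each mouse. The fit was tested on simulated counts.

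The family genes and all lists were chosen with earlier results of these data known. The text names every family gene, in each pathway class up to 3 genes called against ctrl at 6 weeks with the smallest adjusted P, the genes below the filter, and for each family gene its nearest genes by profile. The values of 1 gene of the interferon class are not reported here. Counts per TPM, the length offset, the scaling by Gas6 and the relations without mouse 4 of ctrl were added after the data were seen. Relations within groups used 100000 permutations. Littermates and sexes were not labelled per mouse, so P values measure the spread between these mice. Reads carried no molecular identifiers, so the floor of 3 counts covers counting error only. Sequences are RefSeq's and gene positions GENCODE M21's. All 5 family genes had a promoter sequence.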

Additional observations from a re-analysis of the deposited data

Results flagged for a closer look

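Some values stood out among the genes named above. In 72 groups of 6 mice checked, 4 had a highest or lowest mouse whose gap to the next exceeded Dixon's 95% critical value as a share of the group's range, and chance gives about 1 in 20. Lgals3 in ctrl had its highest mouse, mouse 4, with a gap of 0.638 of the range. Socs3 had its highest 2wk mouse with a gap of 0.627 and Src its highest 6wk mouse with one of 0.631. For Tyro3, counts per TPM of the lowest 6wk mouse had a gap of 0.934 of the range.

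The irradiated groups differed from each other by the edgeR test in 6 named genes. Gas6 was lower at 6 than at 2 weeks (log2 fold change −0.27, adjusted P = 0.0347), and the other 5 were higher. These were Abcg1 (0.86, adjusted P = 0.00309), Anxa1 (0.93, adjusted P = 0.00336), Elmo1 (0.35, adjusted P = 0.0185), Itgb3 (0.84, adjusted P = 0.0323) and Adam10 (0.26, adjusted P = 0.0388). Abcg1, Anxa1 and Elmo1 kept the call in all 18 fits that left out 1 mouse, Itgb3 in 11, Gas6 in 10 and Adam10 in 9.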

How the results depend on the processing

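Gas6 and Pros1 at both times and Mertk at 6 weeks kept their direction against ctrl under all 12 alternatives and all 18 fits without 1 mouse. With an absolute log2 fold change above 1 required as well, 0 family genes were called in any comparison, and calls at 2 weeks, 6 weeks and between them were 1, 10 and 1 pathway genes and 136, 896 and 172 genes in all. With library size alone, pathway calls were 13, 38 and 13 and all calls at 2 and 6 weeks 1789 and 5820, 95.4% and 94.4% of them higher against 61.6% and 54.0% with TMM. With log2(TPM + 1), pathway calls were 23, 48 and 13, and all calls at 2 and 6 weeks 2813 and 7472; with log2(TPM + 0.1) they were 25 and 48, and 3026 and 7463. No family gene was called between 2 and 6 weeks (0) with either TPM scale, where Gas6 was at −0.11. Against ctrl, alternatives called up to 3 family genes at 2 weeks and up to 4 at 6 weeks. Mertk at 2 weeks was called in 3 of 12 alternatives, and Axl was the added call at 6 weeks, higher than ctrl. At 2 weeks pathway calls were 4 without a filter and 4 with the length offset, where all calls were 489, and DESeq2 called 1216 genes. Axl turned to 0.069, 0.20 and 0.20 at 2 weeks and 0.21, 0.55 and 0.56 at 6 weeks (library size, TPM + 1, TPM + 0.1), and to 0.16 at 6 weeks with the length offset. Tyro3 at 6 weeks turned to −0.059, −0.12 and −0.41 (TPM + 1, TPM + 0.1, length offset). Within-group relations that passed were 1 with TMM, 2 without mouse 4 of ctrl, 6 with library size and 8 with TPM. The cause of these shifts was not tested.

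Leaving out 1 mouse gave 0 to 1 family calls between 2 and 6 weeks (Axl from −0.017 to 0.081), 1 to 9 pathway calls at 2 weeks, 3 to 9 between the groups, and 451 to 879 and 330 to 994 calls in all; the fewest were without mouse 6 of ctrl (451) and mouse 6 of 6wk (330). All calls at 2 weeks were also below 500 without mouse 3 of ctrl (453) and mice 5 and 6 of 2wk (466 and 474), and between 2 and 6 weeks without mice 1, 2, 4 and 6 of 2wk (478, 354, 385 and 451) and mice 1 and 3 of 6wk (419 and 393). The counts per TPM of Axl at 6 weeks were 0.846 to 0.904 times ctrl, with an exact permutation P of 0.0390 without mouse 3 of ctrl.

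Replicate numbers are shared between groups, but same-numbered mice did not deviate together over all genes tested (r of −0.0828 to 0.106 over 18 pairs, 2 above 0.1). They were not treated as pairs, though this check cannot show whether they were matched by litter or sex. With a replicate block, pathway calls at 2 weeks were 3, family calls between 2 and 6 weeks 0 (Gas6 −0.27, adjusted P = 0.0715), and other family calls stayed.

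Depth limits Tyro3, at 10 to 33 counts per mouse. It also limits Lgals3 and Procr, at 3 to 37 and 8 to 35 counts per mouse in ctrl. A covariate of Y-linked genes, used because sex was not labelled, changed no family call.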
